A study of Mus musculus with 15 samples.

Results

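Scavenger receptors were described across 5 groups of sorted mouse cells through 8 genes taken by symbol, Marco, Msr1, Colec12, Cd36, Scarb1, Stab1, Olr1 and Cd5l. All 8 were present, with the same Ensembl gene ID, among the 28347 genes of the steady-state table and the 48709 genes of the surgery table, and all 8 passed the filter on low values in both. RNA sequencing had been performed on 15 libraries of C57BL/6 mice, 3 per group. In the steady state the groups were CX3CR1-high CCR2-high macrophages of visceral adipose tissue (CCR2-high here), CX3CR1-low CCR2-low macrophages of the same tissue (CCR2-low here), and the third group is labelled blood monocytes. The surgery groups were cells labelled CCR2-low macrophages of visceral adipose tissue, taken from mice after myocardial infarction (MI) or after surgery without infarction (sham). No genotype, transgene or drug is named for any group. The sources used here do not give ages, the time after MI, the number of cells or whether mice were pooled.

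Scavenger receptors are surface proteins with which macrophages take up modified lipoproteins, dying cells, bacteria and other polyanionic cargo without prior opsonisation. Msr1 (SR-A1), Marco and Colec12 (collectin placenta 1, also SR-A4) are class A receptors with a collagen-like stalk, and Cd36 and Scarb1 (SR-BI) are class B receptors with a hairpin topology that bind lipoproteins and, for CD36, long-chain fatty acids. Olr1 (LOX-1) is a C-type lectin receptor for oxidised LDL, Stab1 (stabilin-1) is a large endocytic receptor of macrophages and sinusoidal endothelium, and Cd5l (AIM) is not a receptor but a secreted scavenger-receptor cysteine-rich protein of tissue macrophages that enters fat cells through CD36.

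Promoter sequences are shown for Marco, Cd5l and Cd36, the first 2 because they differed widely between groups and between libraries of a group and the last because it was the most abundant member in the steady-state macrophages. RefSeq promoter windows on GRCm38.p6, the assembly of mm10, run from 250 bases before to 50 bases after the annotated start, and 5 of the 8 members had one (Cd36, Cd5l, Marco, Olr1 and Stab1). They are written 5′ to 3′ on the strand of the gene, and capitals mark matches on either strand to GAGGAA (the core bound by the ETS factor PU.1), TGAGTCA (AP-1), AGGTCA (a nuclear receptor half-site) and TGCTGA (a MAF half-site). The Marco window is chr1:120504975-120505274 on the minus strand, the Cd5l window is chr3:87357631-87357930 on the plus strand and the Cd36 window is chr5:17835847-17836146 on the minus strand. The Cd36 start used by RefSeq lies inside the GENCODE gene.
Marco: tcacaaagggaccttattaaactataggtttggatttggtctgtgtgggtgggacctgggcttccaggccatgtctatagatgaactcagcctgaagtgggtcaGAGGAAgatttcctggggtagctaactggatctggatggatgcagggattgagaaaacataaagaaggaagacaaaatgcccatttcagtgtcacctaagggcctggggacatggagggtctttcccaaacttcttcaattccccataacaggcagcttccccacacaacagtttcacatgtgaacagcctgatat
Cd5l: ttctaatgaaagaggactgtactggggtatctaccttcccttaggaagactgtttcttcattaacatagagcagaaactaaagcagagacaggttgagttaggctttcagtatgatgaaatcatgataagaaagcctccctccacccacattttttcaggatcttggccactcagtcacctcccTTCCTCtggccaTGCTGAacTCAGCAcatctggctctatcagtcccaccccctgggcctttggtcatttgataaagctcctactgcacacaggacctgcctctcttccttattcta
Cd36: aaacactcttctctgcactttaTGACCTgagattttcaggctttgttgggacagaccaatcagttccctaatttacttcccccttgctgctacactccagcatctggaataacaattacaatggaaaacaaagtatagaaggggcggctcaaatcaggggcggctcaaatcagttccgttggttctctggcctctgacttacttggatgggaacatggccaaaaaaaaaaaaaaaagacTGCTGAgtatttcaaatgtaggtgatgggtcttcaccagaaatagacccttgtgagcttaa

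The Marco window held 1 match, GAGGAA on the strand of the gene, 146 bases before the start. In the Cd5l window GAGGAA lay 66 bases before the start on the opposite strand, and TGCTGA lay on both strands, 54 and 46 bases before the start. The latter 2 matches face each other with 2 bases between them, an arrangement that 2 of 32851 promoter windows held. This spaced form was looked for after the sequence had been seen. The Cd36 window held AGGTCA on the opposite strand 228 bases before the start and TGCTGA 11 bases before it. Of the windows not printed, Olr1 held TGAGTCA 60 bases, GAGGAA 76 bases and AGGTCA 175 bases before the start, and Stab1 held GAGGAA 30 bases and TGCTGA 43 bases before it. Among all 32851 promoter windows GAGGAA was found in 28.3%, TGCTGA in 19.5%, AGGTCA in 16.3% and TGAGTCA in 5.20%, and no matches overlapped in the 5 members. A match describes letters only, since no binding was measured.

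In mm10 with GENCODE M21, Marco (ENSMUSG00000026390) lies on the minus strand of chromosome 1 from 120474538 to 120505024 and Msr1 (ENSMUSG00000025044) on the minus strand of chromosome 8 from 39581685 to 39642673. Colec12 (ENSMUSG00000036103) lies on the plus strand of chromosome 18 from 9707595 to 9882644. The class B genes are both on the minus strand of chromosome 5, Cd36 (ENSMUSG00000002944) from 17781690 to 17888801 and Scarb1 (ENSMUSG00000037936) from 125277087 to 125341094. Stab1 (ENSMUSG00000042286) lies on the minus strand of chromosome 14 from 31139013 to 31168641 and Olr1 (ENSMUSG00000030162) on the minus strand of chromosome 6 from 129485244 to 129507165. Cd5l (ENSMUSG00000015854) lies on the plus strand of chromosome 3 from 87357881 to 87371073. All 8 are annotated as protein coding.

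Steady-state values are TPM, which sum to 1e6 in each library, and surgery values are RPKM. Both scale for gene length, so levels of different genes can be compared within a table. The tables differ in unit and processing and were not tested against each other. Reads worked back from the steps of the TPM over 5762 genes with an authors' length came to 33.9 to 43.9 M (M, 1e6) in the macrophage libraries and 19.7 to 22.8 M in the libraries labelled blood monocytes, and the RPKM denominators came to 57.7 to 75.6 M reads. The labels were read against marker genes. The 9 macrophage markers measured in the steady state summed to 40255 to 43158 TPM in CCR2-high, 40306 to 53408 TPM in CCR2-low and 1009 to 1248 TPM in monocyte libraries. The 9 granulocyte precursor markers, such as Mpo, summed to 25586 to 30895 TPM in the libraries labelled blood monocytes. In the macrophage libraries they summed to 3.72 to 15.9 TPM. The 6 classical monocyte markers measured summed to 7212 to 8407 TPM in the libraries labelled blood monocytes, mostly Ly6c2 (5127 to 6280 TPM). In the macrophage libraries these 6 summed to 470.1 to 1535 TPM. With both lists high, the monocyte group is used here by its label only. Replicates are separate samples by their titles, and nothing says that they came from separate animals, so the p-values measure the spread between these samples. In such bulk samples, more cells of a type and more RNA per cell cannot be told apart.

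The macrophage subsets of visceral fat, CCR2-high and CCR2-low, were set against each other to see which receptor transcripts separate them. Marco, Colec12 and Cd5l were far lower in CCR2-high macrophages, by 5.19-fold, 5.99-fold and 6.28-fold on the log2(TPM + 1) scale. Msr1 and Cd36 were lower by 1.4-fold and 1.49-fold, Scarb1 was 1.63-fold higher, and Stab1 and Olr1 did not pass the test. In all, 6 of the 8 genes were called (limma, adjusted p below 0.05), with less of 5 and more of 1 in CCR2-high, where 17.7% of all 15467 genes tested were called, 8.74% lower and 8.93% higher. The same 6 genes had no overlap between the libraries of the 2 groups, as had 37.7% of all genes tested. The median log2 fold change was -0.53 over the 8 genes and -0.01 over all genes tested.

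**Figure D1:**
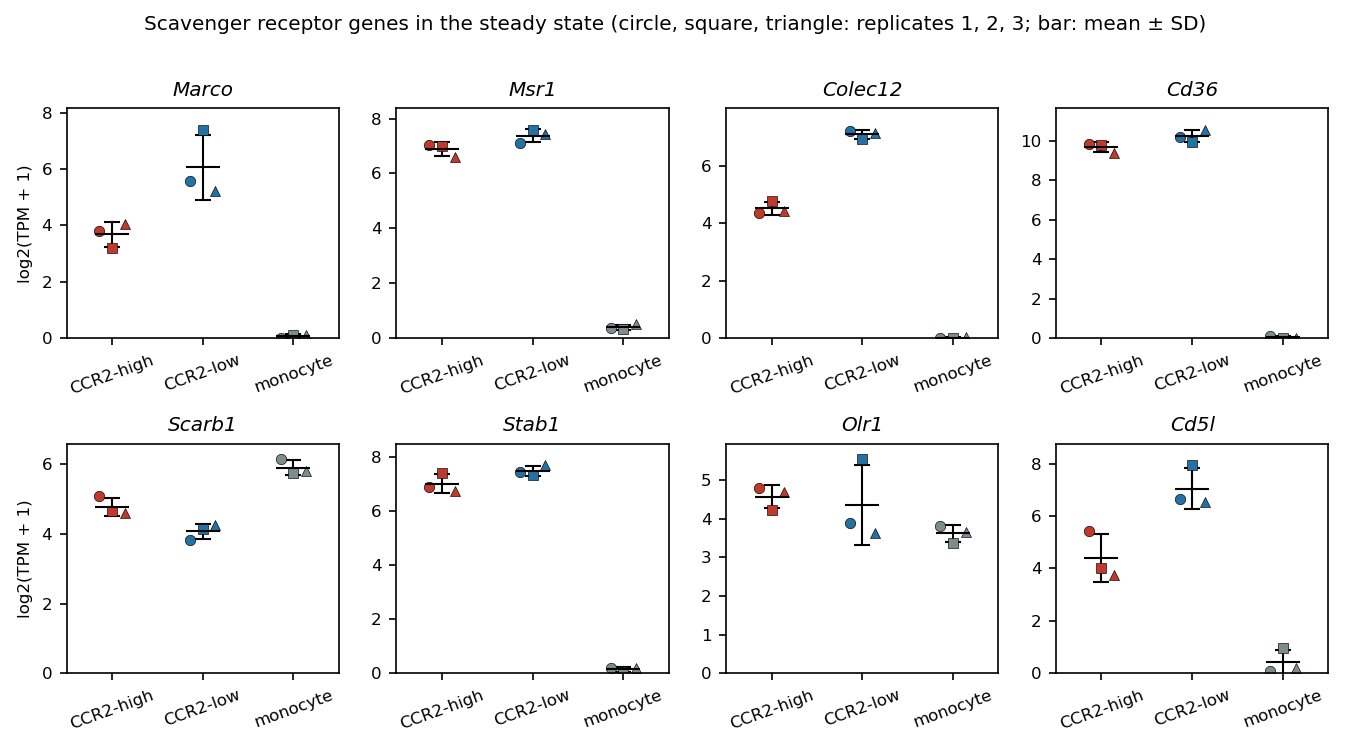
Level of each of the 8 genes in the 9 steady-state libraries as log2(TPM + 1), with 1 panel per gene, symbols for replicates 1 to 3, and bars for the mean ± SD of 3 libraries. Colec12 separates all 3 groups with little spread, CCR2-low replicate 2 stands above its group for Marco, Olr1 and Cd5l, and Scarb1 is highest in the libraries labelled blood monocytes.

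Among the class A receptors, Marco, which binds bacteria and unopsonised particles, was at 13.0, 8.12 and 15.5 TPM in CCR2-high replicates 1, 2 and 3 and at 46.0, 167 and 36.4 TPM in CCR2-low replicates 1, 2 and 3. Every CCR2-low library was above every CCR2-high library, and CCR2-low replicate 2 stood far above the other 2 of its group. CCR2-high against CCR2-low gave a log2 fold change of -2.38 (SE 0.45, adjusted p = 0.00534, limma). Without CCR2-low replicate 2 it was -1.71 (adjusted p = 0.000963).

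Colec12, an endocytic receptor with a lectin domain, was at 19.5, 26.2 and 20.3 TPM in CCR2-high and at 148, 121 and 140 TPM in CCR2-low libraries. The groups were wide apart and each was tight, with a coefficient of variation of 16.7% and 10.3%. Its log2 fold change was -2.58 (SE 0.13, adjusted p = 3.94e-06, limma). Of the 8 genes it had the smallest p.

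Msr1, the first described macrophage receptor for acetylated LDL, was at 131, 128 and 96.4 TPM in CCR2-high and at 139, 190 and 171 TPM in CCR2-low libraries. The groups did not overlap, but the highest CCR2-high and the lowest CCR2-low library were close. The log2 fold change was -0.49 (SE 0.15, adjusted p = 0.0464, limma), with a 95% interval from -0.82 to -0.16. The call was kept in 4 of 13 alternatives. It was lost without CCR2-high replicate 1 (adjusted p = 0.0673), 2 (0.0581) or 3 (0.169) and without CCR2-low replicate 2 (0.148) or 3 (0.131).

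Of the class B receptors, Cd36 was the most abundant of the 8 genes in every steady-state macrophage library, ranking 133 to 184 among all genes in CCR2-high and 77 to 118 in CCR2-low libraries. It was at 921, 885 and 668 TPM in CCR2-high and at 1197, 988 and 1515 TPM in CCR2-low libraries. The groups did not overlap, and CCR2-low replicate 2, the highest library for Marco, was the lowest of its group here. The log2 fold change was -0.57 (SE 0.16, adjusted p = 0.0329, limma), and the call was kept in 6 of 13 alternatives. It was lost without CCR2-high replicate 3 (adjusted p = 0.118) and without CCR2-low replicate 1 (0.0800) or 3 (0.119).

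Scarb1, the HDL receptor for selective uptake of cholesteryl ester, was at 32.8, 24.1 and 23.1 TPM in CCR2-high and at 13.1, 16.5 and 18.1 TPM in CCR2-low libraries. Scarb1 alone of the 8 genes was called higher in CCR2-high, and the groups did not overlap. Its log2 fold change was 0.70 (SE 0.17, adjusted p = 0.0165, limma), and 10 of 13 alternatives kept the call. Without CCR2-high replicate 1 the adjusted p was 0.0691, and without CCR2-low replicate 1 it was 0.0650.

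Stab1, which internalises modified LDL and extracellular matrix fragments, was at 118, 170 and 106 TPM in CCR2-high and at 173, 159 and 208 TPM in CCR2-low libraries. CCR2-high replicate 2 lay inside the CCR2-low range, and the other 2 lay below it. The log2 fold change of -0.48 (SE 0.17, 95% interval -0.85 to -0.10) did not pass after adjustment (adjusted p = 0.0795, limma). Without CCR2-high replicate 2 it was -0.68 (adjusted p = 0.0125).

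Olr1 was at 26.6, 17.8 and 24.9 TPM in CCR2-high and at 13.9, 45.7 and 11.3 TPM in CCR2-low libraries. CCR2-low replicate 2 was the highest of all 9 libraries and the other CCR2-low libraries were below every CCR2-high library, so that the groups overlapped through 1 library. Its log2 fold change was 0.22 (SE 0.40, 95% interval -0.67 to 1.11, adjusted p = 0.766, limma). Without CCR2-low replicate 2 it was 0.81 (adjusted p = 0.0202), and without CCR2-low replicate 1 or 3 it was -0.01 or -0.15.

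Cd5l, which supports macrophage survival and acts on lipid metabolism in fat cells, was at 42.5, 15 and 12.3 TPM in CCR2-high and at 99.1, 245 and 92.3 TPM in CCR2-low libraries. The groups did not overlap, and 1 library of each stood above its group, CCR2-high replicate 1 and CCR2-low replicate 2. Its log2 fold change was -2.65 (SE 0.47, adjusted p = 0.00357, limma), with a range of -3.18 to -2.20 over 13 alternatives that all kept the call.

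In the authors' deposited table the log2 fold changes of CCR2-high minus CCR2-low had the same signs for these genes, but 1 of the 8 was below an adjusted p of 0.05. The authors' deposited table gives Colec12 at -2.61 (adjusted p = 1.35e-12), Marco at -2.49 (adjusted p = 0.443) and Cd5l at -2.34 (adjusted p = 0.936). For Msr1, Cd36, Scarb1, Stab1 and Olr1 the authors' deposited table gives an adjusted p of 1. The sources used here do not name the test behind these values.

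**Figure D2:**
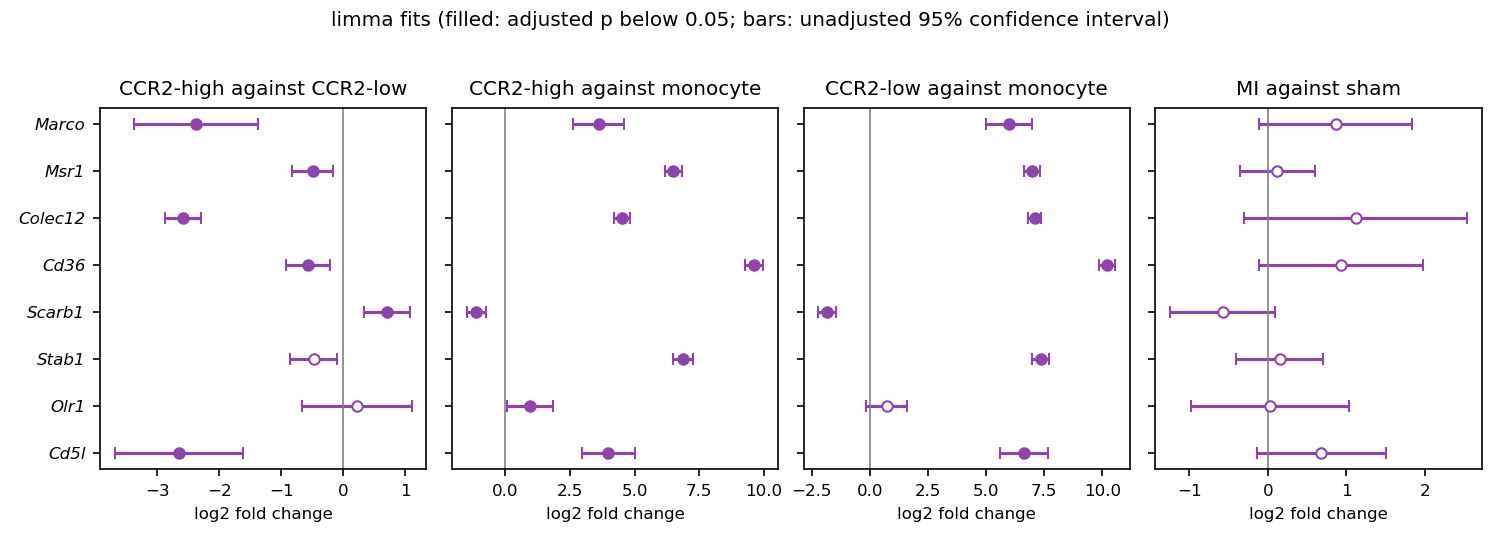
Log2 fold change of each gene in the 4 comparisons on the log2(value + 1) scale (limma), with unadjusted 95% confidence intervals and filled points for an adjusted p below 0.05. Marco, Colec12 and Cd5l lie between -2.65 and -2.38 in CCR2-high against CCR2-low, and no gene is called in MI against sham.

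Marker lists of further cell types were mostly higher in CCR2-low. The counts of calls below stand beside 8.74% of all genes tested called lower and 8.93% called higher in CCR2-high. The 14 endothelial markers summed to 34.0 to 63.2 TPM in CCR2-high and to 143 to 195 TPM in CCR2-low libraries, with 11 of 14 called lower in CCR2-high and 0 of 14 listed at 0 in any macrophage library. The 9 fibroblast markers summed to 9.84 to 31.7 against 65.0 to 129 TPM (7 of 7 tested called lower), and the 10 adipocyte markers to 147 to 195 against 235 to 365 TPM (6 of 8 tested called lower). The 10 markers of large peritoneal macrophages summed to 349 to 513 against 2371 to 3370 TPM, with 10 of 10 called lower in CCR2-high. The 7 mesothelial markers summed to 1.11 to 9.42 against 12.6 to 16.1 TPM (4 of 5 tested called lower). Other lists went the opposite way or were mixed. The 6 lymphatic endothelial markers summed to 0.75 to 23.5 TPM in CCR2-high and 2.35 to 10.4 TPM in CCR2-low libraries (0 of 2 tested called). The 5 B cell markers summed to 51.2 to 59.7 TPM in CCR2-high and 26.3 to 36.6 TPM in CCR2-low libraries (1 of 4 tested called higher). Of 6 classical monocyte markers, CCR2-high had 3 called higher and 0 lower, with overlapping sums of 894 to 978 and 470.1 to 1535 TPM. This list holds Ccr2, which defines the 2 groups, so the direction of Ccr2 was set by the sort. Ccr2 was the most abundant of the list in CCR2-high libraries (436 to 471 TPM), and Fn1 in CCR2-low libraries (368 to 1405 TPM). Stab1, Colec12, Cd36 and Scarb1 are also known from endothelium, Cd36 and Scarb1 from fat cells, and Marco and Cd5l from peritoneal macrophages. The part of these cells in the differences was not tested.

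Each subset was then set against the libraries labelled blood monocytes. Cd36, Stab1, Msr1, Colec12, Marco and Cd5l were near 0 in these libraries and higher in both macrophage groups, while Scarb1 was highest in them. CCR2-high against monocyte called 8 of the 8 genes, 7 higher and 1 lower, where 77.8% of all genes were called, 26.5% higher and 51.3% lower. The libraries of the 2 groups did not overlap for any of the 8 genes, nor for 80% of all genes. CCR2-low against monocyte called 7, of which 6 were higher and 1 lower, where 79% of all genes were called, 28.4% higher and 50.6% lower. Here 7 of the 8 genes, all but Olr1, had no overlap, as had 80.2% of all genes. The 2 comparisons share the monocyte libraries. The median log2 fold change of all genes was -0.42 and -0.40 in them. For the 8 genes it was 4.25 and 6.81, values that depend on the 1 added to each TPM because several of these genes were near 0 in the monocyte libraries.

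In monocyte replicates 1, 2 and 3 Marco was at 0, 0.0823 and 0.0737 TPM and Colec12 at 0, 0 and 0.0147 TPM, which correspond to 0, 3 and 3 reads and to 0, 0 and 1 read. Cd36 was at 0.0753, 0 and 0.0124 TPM, at most 5.5 reads in a library. At this depth these 3 transcripts were at or close to the limit of what a library could show, so no ratio is given. The fitted log2 fold changes depend on the value of 1 added to each TPM, being 9.63 and 10.21 for Cd36 in CCR2-high and CCR2-low against monocyte, 4.51 and 7.09 for Colec12, and 3.61 and 5.98 for Marco (limma, adjusted p at most 2.27e-05).

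Msr1 was at 0.281, 0.245 and 0.415 TPM in the monocyte libraries, 19, 18 and 34 reads, and its log2 fold changes were 6.50 and 6.99. Stab1 was at 0.149, 0.0318 and 0.137 TPM with log2 fold changes of 6.87 and 7.35. Cd5l was at 0.0581, 0.936 and 0.144 TPM, with the highest value in monocyte replicate 2, and log2 fold changes of 3.98 and 6.64. For each of these genes every macrophage library was above every monocyte library.

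Scarb1 reversed this order. It was at 70.5, 53.0 and 54.9 TPM in the monocyte libraries, above every library of both macrophage groups. CCR2-high macrophages were lower by a log2 fold change of -1.13 (SE 0.17, adjusted p = 8.55e-05, limma) and CCR2-low macrophages by -1.84 (SE 0.17, adjusted p = 1.55e-06, limma). The order of Scarb1 levels was thus monocyte, CCR2-high and CCR2-low, with each neighbouring pair called, and these tests share libraries. In the authors' deposited table the monocyte minus CCR2-low difference of Scarb1 is 1.47 (adjusted p = 1.01e-05) and the monocyte minus CCR2-high difference 0.66 (adjusted p = 1). Scaling by the median ratio, which moves the monocyte libraries down and the macrophage libraries up, left both directions as they were. With it the log2 fold changes of Scarb1 were -0.71 for CCR2-high and -1.44 for CCR2-low against monocyte.

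Olr1 was at 13.1, 9.35 and 11.7 TPM in the monocyte libraries, below every CCR2-high library and overlapping the CCR2-low range. It was higher in CCR2-high macrophages by a log2 fold change of 0.95 (SE 0.40, adjusted p = 0.0487, limma), a call that 5 of 13 alternatives kept. The highest adjusted p with a library left out was 0.126, without monocyte replicate 2, and the call was also lost without CCR2-high replicate 1 (0.125) or 3 (0.107) and without monocyte replicate 1 (0.0701) or 3 (0.0809). Against CCR2-low the groups overlapped and the log2 fold change of 0.73 (adjusted p = 0.115, limma) was not called. It stayed uncalled in 11 of 13 alternatives and fell to 0.14 (adjusted p = 0.544) without CCR2-low replicate 2, the highest library. It was 1.10 (adjusted p = 0.0216) without CCR2-low replicate 3 and 1.13 (adjusted p = 0.0276) with median-ratio scaling. In the authors' deposited table Olr1 has monocyte minus CCR2-high and monocyte minus CCR2-low differences of -1.62 (adjusted p = 0.00635) and -1.4 (adjusted p = 0.0319).

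The 8 genes summed to 966 to 1305 TPM in CCR2-high libraries, to 1829 to 2193 TPM in CCR2-low and to 63.6 to 84.2 TPM in monocyte libraries. Cd36 made up 69.2 to 70.6% of this sum in CCR2-high libraries and 51.1 to 69.1% in CCR2-low libraries, the lowest share being that of CCR2-low replicate 2. In CCR2-low libraries Stab1 (159 to 208 TPM), Msr1 (139 to 190 TPM), Cd5l (92.3 to 245 TPM) and Colec12 (121 to 148 TPM) followed Cd36, and neighbours in that order overlapped. Marco, Olr1 and Scarb1 came last by their means. In CCR2-high libraries Stab1 and Msr1 followed Cd36 at similar levels, and Scarb1, Olr1, Cd5l, Colec12 and Marco all had means between 12.2 and 26.7 TPM. In monocyte libraries Scarb1 made up 81.5 to 83.7% and Olr1 14.7 to 17.3% of the sum.

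**Figure D3:**
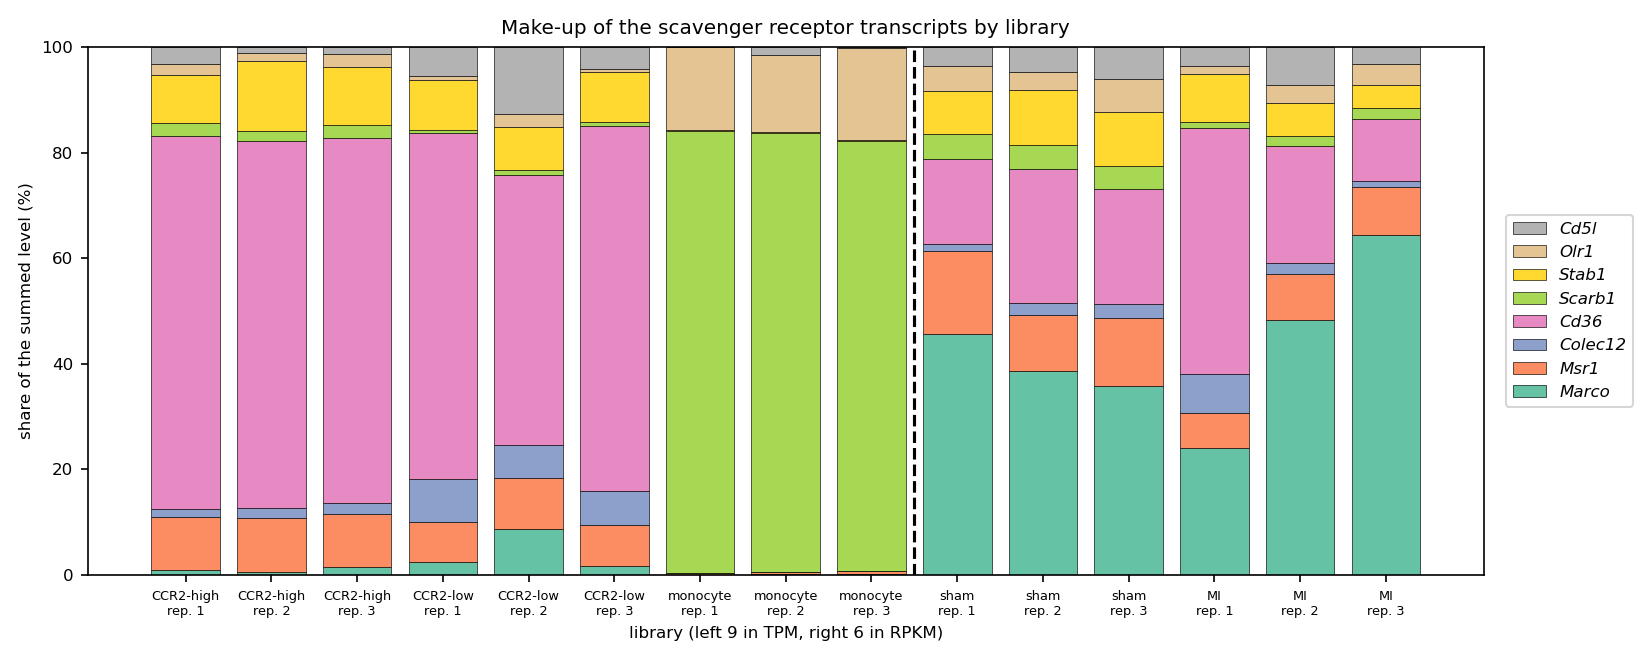
Share of each gene (%) in the summed level of the 8 genes in each of the 15 libraries, in TPM left of the dashed line and in RPKM right of it. Cd36 leads in the steady-state macrophages, Scarb1 in the libraries labelled blood monocytes, and Marco in the sham libraries, while the MI libraries differ among themselves in the shares of Marco and Cd36.

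Other scavenger receptors outside the 8 genes split between the macrophage subsets. Of 16 listed, 10 were tested, and CCR2-high macrophages had 4 called higher and 3 lower, where 17.7% of all genes were called, with a median log2 fold change of 0.04. Cxcl16, which is both a chemokine and a receptor for oxidised LDL, averaged 215 ± 37.1 against 91.4 ± 9.58 TPM (SD, n = 3, log2 fold change 1.21, adjusted p = 0.000393 from limma). Clec7a (dectin-1), a receptor for fungal glucan, stood at 336 ± 60.5 against 161 ± 30.7 TPM (log2 fold change 1.06) and Cd44, the hyaluronan receptor, 101 ± 7.51 against 49.3 ± 4.63 TPM (1.03). Cd163, the haemoglobin scavenger receptor, stood at 260 ± 125 against 698 ± 150 TPM, a log2 fold change of -1.51 (adjusted p = 0.00544, limma). Against the monocyte libraries 8 of 10 were called higher and 0 lower for either subset, where 77.8% of all genes were called for CCR2-high (26.5% higher) and 79% for CCR2-low (28.4% higher), with medians of 3.21 for CCR2-high and 2.49 for CCR2-low. Mrc1, the mannose receptor, averaged 510 ± 82.4 TPM in CCR2-high, 770 ± 112 TPM in CCR2-low and 0.802 ± 0.280 TPM in monocyte libraries, and Cd68 averaged 1441 ± 241, 1219 ± 149 and 62.9 ± 8.95 TPM in the same order. Lrp1, a large endocytic receptor, averaged 60.3 ± 6.98, 45.9 ± 3.21 and 3.42 ± 0.363 TPM.

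Genes of transcription factors known to control the 8 genes split as well. Of 12 tested, 3 rose and 3 fell in CCR2-high against CCR2-low, where 17.7% of all genes were called (median log2 fold change 0.06). Pparg, the nuclear receptor that drives Cd36, averaged 45.4 ± 16.7 against 13.4 ± 2.85 TPM (SD, n = 3, log2 fold change 1.65, adjusted p = 0.00113 from limma), the opposite direction to Cd36. Klf4 was lower (42.6 ± 4.96 against 70.5 ± 6.85 TPM, -0.72) and Nfe2l2, which encodes the oxidative stress factor NRF2, higher (200.4 ± 20.7 against 130.3 ± 15.8 TPM, 0.62). Against monocyte libraries CCR2-high macrophages had 9 called higher and 2 lower, and CCR2-low macrophages 9 higher and 1 lower, with medians of 1.99 and 1.77. Over all genes 77.8% and 79% were called. Maf averaged 40.4 ± 6.95 TPM in CCR2-high, 52.8 ± 11.6 TPM in CCR2-low and 0.0508 ± 0.0215 TPM in monocyte libraries. Rxra, the partner of Pparg, was higher in CCR2-low (34.5 ± 2.98 TPM) than in monocyte libraries (1.77 ± 0.755 TPM).

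Of 17 genes for proteins that work with CD36 in signalling and fatty acid handling, 15 were tested. In CCR2-high against CCR2-low 4 were called higher and 1 lower (median log2 fold change 0.33), where 17.7% of all genes were called. The fatty acid binding protein genes went opposite ways, Fabp4 with 323 ± 98.5 against 659 ± 10.5 TPM (SD, n = 3, log2 fold change -1.07, adjusted p = 0.00438 from limma) and Fabp5 with 63.3 ± 34.9 against 25.9 ± 10.1 TPM (1.19, adjusted p = 0.0337). Fyn, a kinase that associates with CD36, averaged 15.1 ± 2.43 against 8.71 ± 1.82 TPM (0.73) and Tlr6, its co-receptor in signalling to oxidised LDL, 26.4 ± 0.924 against 18.8 ± 1.28 TPM (0.47). Against monocyte libraries CCR2-high macrophages had 11 called higher and 1 lower (median 1.36) and CCR2-low macrophages 10 higher and 4 lower (median 1.42), where 77.8% and 79% of all genes were called. Fabp4 stood at 0.173 ± 0.225 TPM in the monocyte libraries, near 0 as Cd36 was. Tlr2 averaged 269 ± 17.2 TPM in CCR2-high, 202 ± 51.5 TPM in CCR2-low and 12.6 ± 2.77 TPM in monocyte libraries, Tlr4 59.8 ± 9.06 TPM in CCR2-low and 8.17 ± 0.764 TPM in monocyte libraries, and Fcer1g, an adaptor that CD36 recruits, 2218 ± 45.3, 1765 ± 163 and 554 ± 39.3 TPM in the 3 groups.

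Genes with the most similar pattern over the 9 steady-state libraries were found by the root mean square difference of centred log2(TPM + 1) values among 3701 genes, as a description in which points share libraries and groups. The closest to Colec12 were C4a (0.26) and Timd4 (0.31), a complement gene with a near-identical copy and a receptor for dying cells. The closest to Cd5l were the lipoxygenase gene Alox15 (0.46), Vsig4 (0.497), a complement receptor, and C4a (0.57). Timd4 and Alox15 both stand on the list of large peritoneal macrophage markers. Those closest to Marco were Dcn (0.56), Gpihbp1 (0.60) and Gbp2b (0.61), of which the first and second stand on the fibroblast and endothelial marker lists. Msr1 was followed most closely by Plk2 (0.21) and the haem oxygenase gene Hmox1 (0.24), Stab1 by the transporter gene Slco2b1 (0.12) and P2ry6 (0.23), and Cd36 by Cbr2 (0.32) and the phospholipid transfer protein gene Pltp (0.35). Scarb1 was followed most closely by the zinc transporter gene Slc39a6 (0.09), Endod1 (0.13) and Ripk3 (0.14), and Olr1 by Rilpl2 (0.33), Cd9 (0.37) and Slc25a25 (0.40).

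After surgery, MI and sham libraries were compared to ask whether infarction changes these transcripts in cells labelled CCR2-low. No gene of the 8 was called (limma), and 0 of the 8 had an unadjusted p below 0.05. Over all 9607 genes tested 0, or 0%, were called and 753, or 7.84%, had an unadjusted p below 0.05. The median log2 fold change was 0.41 over the 8 genes and -0.02 over all genes tested. Of the 8 genes 1, Scarb1, had no overlap between the groups, as had 14.6% of all genes. The spread within the MI group was wide, with a coefficient of variation of 85.7% for Colec12, 57.7% for Cd36 and 51.3% for Marco, against 35.3%, 29.1% and 11% in sham.

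Marco was at 244, 238 and 198 RPKM in sham replicates 1, 2 and 3 and at 211, 485 and 680 RPKM in MI replicates 1, 2 and 3. MI replicate 1 lay inside the sham range, and the other MI libraries lay above it. MI against sham gave a log2 fold change of 0.86 (SE 0.41, 95% interval -0.11 to 1.84, adjusted p = 0.677, limma). Without MI replicate 1 it was 1.34 (adjusted p = 0.109), and without MI replicate 3 it was 0.503 (adjusted p = 0.514).

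Colec12 went the other way among the MI libraries. It was at 6.91, 13.9 and 14.1 RPKM in sham and at 63.8, 21.9 and 11.3 RPKM in MI libraries. MI replicates 1 and 2 were above every sham library and MI replicate 3 was within the sham range. For Colec12 the log2 fold change was 1.12 (SE 0.59, 95% interval -0.30 to 2.54, adjusted p = 0.714, limma), and 0.47 without MI replicate 1.

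Cd36 was at 86.2, 157 and 121 RPKM in sham and at 411, 222 and 124 RPKM in MI libraries, with the same order of the MI libraries as Colec12. The log2 fold change was 0.93 (SE 0.44, 95% interval -0.12 to 1.98, adjusted p = 0.678, limma). Without MI replicate 1 it was 0.495. Scarb1 was at 24.7, 27.3 and 23.5 RPKM in sham and at 10.1, 18.8 and 23.4 RPKM in MI libraries, with MI replicate 3 just below the lowest sham library. Its log2 fold change was -0.58 (SE 0.28, 95% interval -1.24 to 0.09, adjusted p = 0.691, limma), and -0.25 without MI replicate 1.

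Cd5l was at 19.6, 29.2 and 33.4 RPKM in sham and at 31.9, 73.1 and 34.8 RPKM in MI libraries, where MI replicate 2 stood above the rest. For Cd5l the log2 fold change was 0.68 (SE 0.34, 95% interval -0.14 to 1.5, adjusted p = 0.707, limma), and 0.31 without MI replicate 2. Msr1 was at 84.3, 65.8 and 71.1 RPKM in sham and at 59.7, 87.9 and 96.5 RPKM in MI libraries, with a log2 fold change of 0.12 (95% interval -0.36 to 0.60). For Msr1 MI replicate 1 was the lowest and MI replicate 3 the highest of all 6 libraries.

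Stab1 was at 44.2, 64.9 and 57.2 RPKM in sham and at 79.9, 62.2 and 45.5 RPKM in MI libraries, a log2 fold change of 0.15 (95% interval -0.40 to 0.71). Olr1 was at 24.8, 20.6 and 34.2 RPKM in sham and at 12.9, 34.3 and 41.2 RPKM in MI libraries, a log2 fold change of 0.03 (95% interval -0.98 to 1.03). For both genes the groups overlapped, and MI replicate 1 was the highest of all 6 libraries for Stab1 and the lowest for Olr1. The intervals of these 2 genes leave room for changes in either direction.

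**Figure D4:**
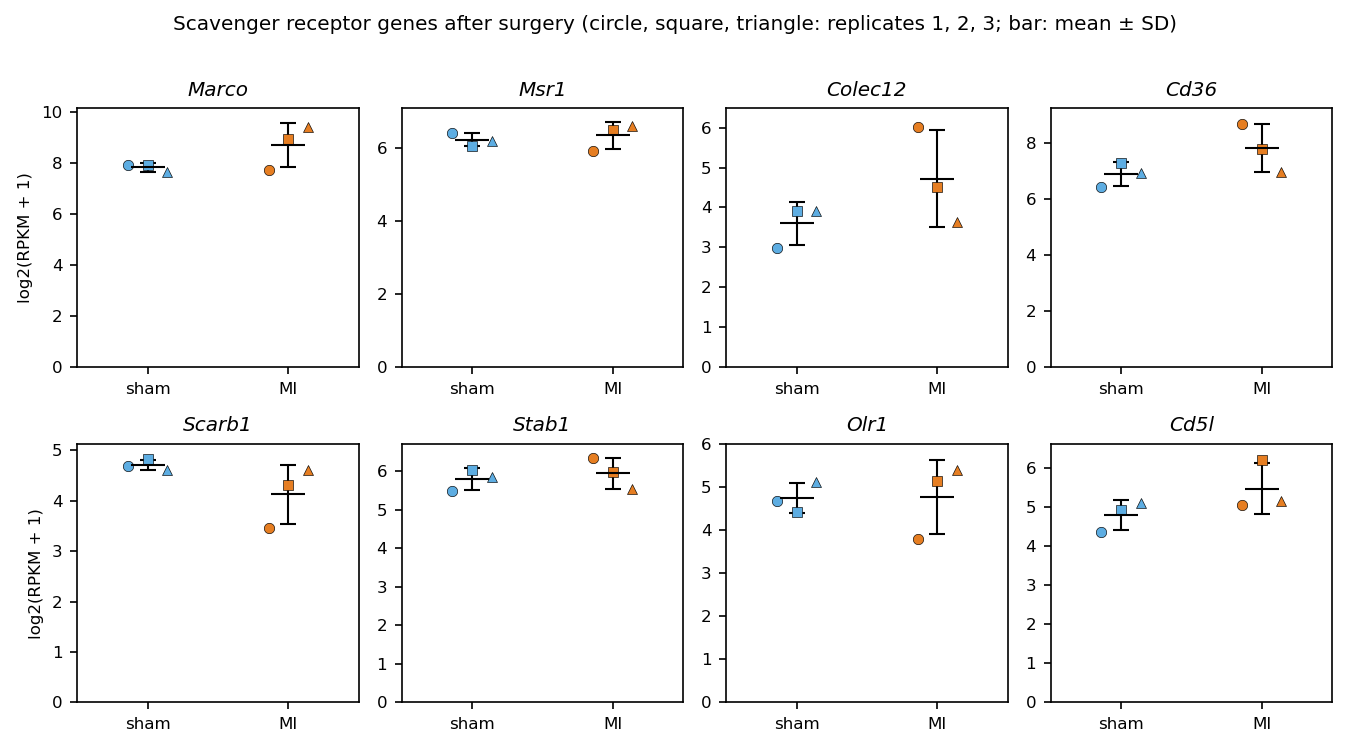
Level of each of the 8 genes in the 6 surgery libraries as log2(RPKM + 1), with 1 panel per gene, symbols for replicates 1 to 3, and bars for the mean ± SD of 3 libraries. MI replicate 1 (circle) is lowest of the MI libraries for Marco, Msr1, Olr1, Scarb1 and Cd5l and highest for Colec12, Cd36 and Stab1.

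The 8 genes summed to 534 to 617 RPKM in sham and to 881 to 1057 RPKM in MI libraries. Marco made up 35.9 to 45.6% of the sum in sham libraries and ranked 200 to 274 among all genes, while Cd36 made up 16.1 to 25.4%. In MI libraries the share of Marco ran from 24.0% in replicate 1 to 64.3% in replicate 3, and that of Cd36 from 46.7% in replicate 1 to 11.8% in replicate 3. In the steady-state CCR2-low libraries Marco had made up 1.66 to 8.63%. The steady-state and surgery shares come from different units and processing, and their difference was not tested.

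The members fell into opposite orders within groups. In CCR2-low replicate 2 Marco was 4.05 times, Olr1 3.63 times and Cd5l 2.56 times the mean of the other 2 libraries of the group, while Cd36 was 0.728 times, Stab1 0.836 times and Colec12 0.837 times that mean. In MI replicate 1 Colec12 was 3.83 times, Cd36 2.37 times and Stab1 1.48 times the mean of the other 2. In the same library Olr1 was 0.343 times, Marco 0.363 times, Scarb1 0.476 times, Cd5l 0.592 times and Msr1 0.648 times that mean. In MI replicate 3 Colec12 (0.265 times), Cd36 (0.393 times) and Stab1 (0.641 times) were lowest and Marco, Olr1, Scarb1 and Msr1 were highest. Cd5l was highest in MI replicate 2 (2.19 times). Sham replicate 1 was lowest of its group for Colec12, Cd36, Stab1 and Cd5l and highest for Marco and Msr1. Olr1 did not go with Marco in sham, being highest in sham replicate 3 (1.51 times), where Marco was lowest (0.822 times). In CCR2-high replicate 2 Marco (0.57 times the mean of the other 2) and Olr1 (0.692 times) were lowest and Stab1 (1.52 times) and Colec12 (1.32 times) highest, while Cd36 and Msr1 were both lowest in CCR2-high replicate 3. The order was read from the same libraries in which it was noticed and has no test.

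**Figure D5:**
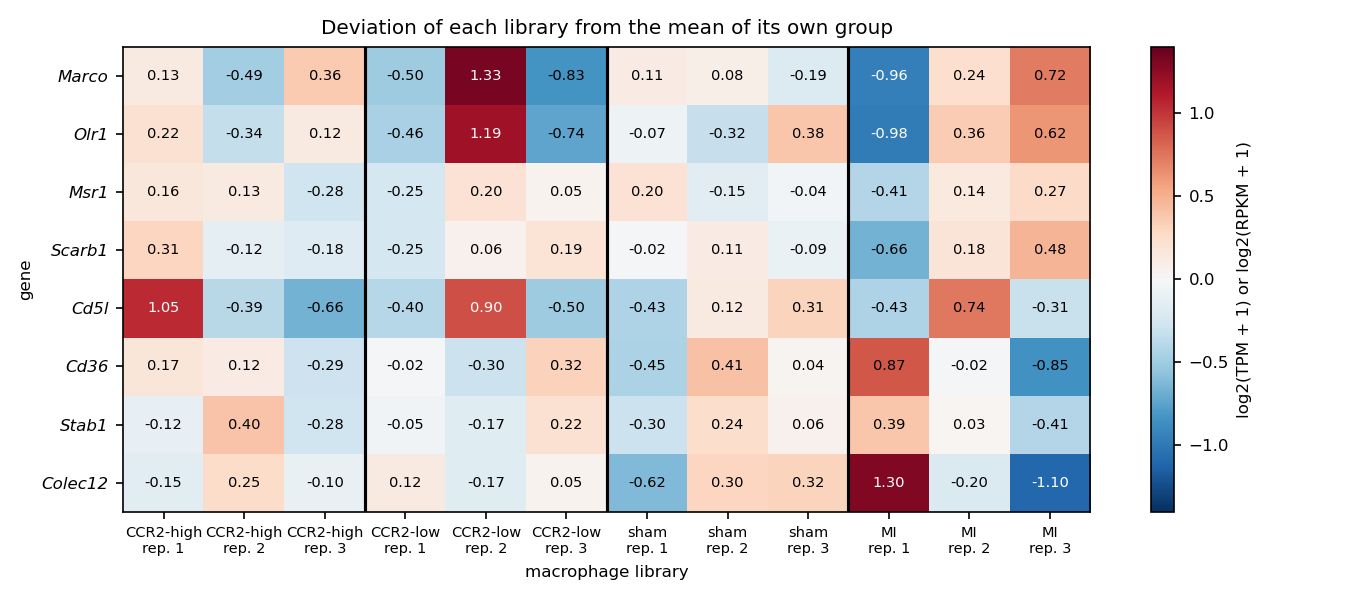
Deviation of each macrophage library from the mean of its own group, in log2(TPM + 1) for the left 6 libraries and log2(RPKM + 1) for the right 6, by gene. In CCR2-low replicate 2 and MI replicate 1 Marco and Olr1 deviate in 1 direction and Cd36, Stab1 and Colec12 in the other.

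Other measures moved with these libraries. CCR2-low replicate 2 had the highest sum of macrophage markers (53408 TPM, against 43153 and 40306 TPM). Most of each sum was Lyz2, at 35462 TPM in CCR2-low replicate 2 against 23699 and 22864 TPM in replicates 1 and 3. CCR2-low replicate 2 also had the highest sum of the 6 classical monocyte markers, mostly Fn1 (1535 TPM, against 470.1 and 631 TPM). It also had the highest sum of large peritoneal macrophage markers in its group (3370 TPM, against 2974 and 2371 TPM). Fcna, the most abundant of that list, was nevertheless lowest in CCR2-low replicate 2 (1229 TPM, against 1867 and 1480 TPM). MI replicate 1 had the lowest sum of macrophage markers (28643 RPKM, against 42111 and 52209 RPKM in MI replicates 2 and 3). Most of this was again Lyz2, at 17600 RPKM against 32621 and 42358 RPKM. Both orders of macrophage marker sums follow Lyz2 and do not speak for the other macrophage markers. MI replicate 1 also had the lowest sum of classical monocyte markers (190 RPKM, against 604 and 656 RPKM). In MI replicate 1 the sum of large peritoneal macrophage markers was the highest of its group (1315 RPKM, mostly Fcna, against 837 and 446 RPKM). Sham libraries had 258 to 471 RPKM. The 9 fibroblast markers summed to 62.8 to 94.7 RPKM in MI and 18.0 to 39.7 RPKM in sham libraries, the 10 adipocyte markers to 87.9 to 149 against 48.8 to 54.7 RPKM, and the 14 endothelial markers to 11.5 to 16 against 6.74 to 8.44 RPKM. The 7 mesothelial markers summed to 10.1 to 15.2 RPKM in MI and 3.27 to 11.4 RPKM in sham libraries, and the 5 B cell markers to 9.31 to 11.3 against 13.5 to 28.3 RPKM. The part of these cells or of the mix of subsets in the values of the 8 genes was not tested.

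The further lists gave no calls after MI. Of the other scavenger receptors 0 of 9 tested were called (median log2 fold change -0.19), with the smallest p for Clec7a (66.0 ± 9.42 against 86.8 ± 13.5 RPKM in MI against sham, log2 fold change -0.39) and Cxcl16 (101 ± 21.9 against 131 ± 3.34 RPKM, -0.38). Of the regulators 0 of 12 were called (median 0.06), with Klf4 at 24.4 ± 3.96 against 17.4 ± 1.87 RPKM. Of the CD36 partner genes 0 of 15 were called (median -0.06). Fabp4 was at 65.4 ± 27.3 against 23.3 ± 3.00 RPKM (log2 fold change 1.37, adjusted p = 0.425 from limma) and Fabp5 at 16.6 ± 9.71 against 33.5 ± 4.45 RPKM (-1.16, adjusted p = 0.617 from limma). The groups did not overlap for either gene, nor for 14.6% of all genes tested, and both genes were named for their small p.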

How the data were processed

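RNA of sorted cells had been extracted with a PicoPure kit and sequenced with Illumina libraries, per the labels' protocols. The authors deposited TPM for the 9 steady-state libraries, with their own log2 fold changes and adjusted p-values in the same table, and RPKM for the 6 surgery libraries, whose column names record paired and trimmed reads, per the file headers. The gene lengths used to work back reads are other values the authors deposited. Per the submitters' processing notes the genome was mm10. The sources used here name no aligner, counter or authors' test.

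Each table was fitted on its own with limma (3.58.1, R 4.3.3). Values were taken as log2(value + 1), genes had to reach 1 in 3 or more libraries, and eBayes used an intensity trend. The steady-state fit held all 9 libraries and tested 15467 genes, and the surgery fit held 6 libraries and tested 9607. Tests were two-sided with Benjamini-Hochberg adjustment over all genes tested, and a gene was called at an adjusted p below 0.05. A fold change on this scale understates the change of genes near 0. The fits were tested on simulated data.

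The 8 genes and all lists were chosen with earlier results of these data known. Named were the 8 genes, up to 4 called genes of smallest p per list and comparison (the 2 of smallest p where none was called), and the genes of most similar pattern. The similar genes had a mean of at least 10 TPM and an SD of at least 0.5, leaving out unnamed gene models. A gene that meets this rule is not reported here. Alternatives were another pseudocount (0.1), no filter, a mean of at least 5, robust eBayes, median-ratio scaling, RPKM rescaled to 1 total, 2 groups only, a replicate block and each library left out.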

Additional observations from a re-analysis of the deposited data

How the results depend on the processing

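Over 424 values of the 8 genes under alternatives, 385 kept direction and side of the threshold, 27 were no longer called, 4 became called and 8 changed sign, none of the last while called. Marco, Colec12 and Cd5l kept their call in all 13 alternatives of each steady-state comparison. In CCR2-high against CCR2-low 2733 genes were called, 1795 with a replicate block on the title numbers and 1481 to 2424 with a library left out, and 6 of the 8 genes were called, 3 with no filter, where more genes are tested, and 4 to 6 with a library left out. In MI against sham 0 genes were called, and 0 to 5 with a library left out, the 5 without MI replicate 3. The cause was not tested.

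Signs changed only with a library left out. Olr1 in CCR2-high against CCR2-low ranged from -0.15 (CCR2-low replicate 3 left out) to 0.81 (replicate 2 left out), with -0.01 for replicate 1. In MI against sham Olr1 ranged from -0.28 (MI replicate 3 left out) to 0.52 (MI replicate 1), with -0.01 and -0.13 for sham replicates 1 and 2 and -0.15 for MI replicate 2. Stab1 ranged from -0.041 (MI replicate 1) to 0.36 (MI replicate 3), and Msr1 from -0.017 (MI replicate 3) to 0.33 (MI replicate 1).

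Deviations of same-numbered libraries correlated at -0.36 to 0.03 over 9 steady-state pairs. Over the 3 surgery pairs the range was -0.57 to 0.06 by title and -0.51 to 0.17 by the numbers in the descriptions. Pairs with different title numbers reached 0.37 in the steady state and 0.64 after surgery. With 3 libraries per group, such values cannot show whether same-numbered samples share an animal or a day. With the block, 4 of the 8 genes were called in CCR2-high against CCR2-low. Depth limits Marco, Colec12 and Cd36 in the monocyte libraries, where they had at most 3, 1 and 5.5 reads, so their levels there are close to the limit of detection.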
